A study of Mus musculus with 2 samples.

Results

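Messenger RNA of 7 genes was examined in cultured mouse embryonic fibroblasts (MEFs), the connective tissue cells grown from embryos. The genes are 4 serpins, Serpinf1, Serpine2, Serping1 and Serpinh1, together with the plasminogen activators Plat and Plau and the urokinase receptor Plaur. They were chosen by name, with earlier results of these arrays in view, and their probe sets were found by an exact match to the gene symbol of the platform annotation. Of the 7 genes, 6 had probe sets of that name, 10 in all among 45101 probe sets, and 5 reached the measured range among 10164 measured genes of 18193. No probe set carried the name Serpine2 in the annotation, so protease nexin 1, which that gene encodes, was not analysed here.

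Each genotype had 1 Affymetrix array. One was hybridised with RNA of homozygous Fut8-/- cells and the other with RNA of Fut8+/+ cells, both grown in serum-containing medium with no other treatment named. The Fut8 product is the enzyme that attaches core fucose, the fucose next to the protein, to N-glycans. The series' design text gives 3 cultures per genotype. Each array is described as replicate 1, while its sample title ends in 3. Whether an array holds RNA of 1 culture or a pool of several is unknown. Strain, embryonic age, passage and the design of the disrupted allele were not given in the sources used here. There was therefore no replicate check of any difference below, no test was made, and 1 array per genotype limits the precision of every value.

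Serpins are a protein family named for the inhibition of serine proteases. An inhibitory serpin offers the protease a loop as bait and then traps it in a covalent complex. Some members have no protease target: Serpinf1 encodes pigment epithelium-derived factor, a secreted protein known for blocking the growth of blood vessels and for supporting neurons, and Serpinh1 encodes Hsp47, a chaperone that stays in the endoplasmic reticulum and holds the triple helix of procollagen. Serping1 encodes the C1 inhibitor, which restrains the complement and contact proteases. Plat and Plau encode tissue-type and urokinase-type plasminogen activator, which cut plasminogen to plasmin, the protease that dissolves fibrin and breaks down matrix around fibroblasts. Plaur encodes the membrane-anchored receptor that holds urokinase at the cell surface.

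Upstream sequence was at hand for the 3 measured genes Serpinf1, Serpinh1 and Plaur. It is shown because these genes cover the range of the differences below, from the largest to the smallest. The sequences are the 250 bases before the transcription start in RefSeq's annotation of GRCm38.p6, written 5′ to 3′ on the strand of the gene. Serpinf1 lies on the minus strand at chr11:75422624-75422873, Serpinh1 on the minus strand at chr7:99353240-99353489 and Plaur on the plus strand at chr7:24462233-24462482. Capitals mark matches to any of 7 motifs searched on both strands: CCAAT (the CCAAT box), TATAAA (the TATA box), GGGCGG (the GC box), GAANNTTC (the core of a heat shock element), TGANTCA (an AP-1 site), and the E-boxes CACGTG and CACATG.
Serpinf1: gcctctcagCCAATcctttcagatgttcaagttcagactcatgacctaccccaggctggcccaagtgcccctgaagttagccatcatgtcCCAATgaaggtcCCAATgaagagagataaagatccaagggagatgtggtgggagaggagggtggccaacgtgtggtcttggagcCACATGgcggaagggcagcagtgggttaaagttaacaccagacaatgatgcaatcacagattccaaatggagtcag
Serpinh1: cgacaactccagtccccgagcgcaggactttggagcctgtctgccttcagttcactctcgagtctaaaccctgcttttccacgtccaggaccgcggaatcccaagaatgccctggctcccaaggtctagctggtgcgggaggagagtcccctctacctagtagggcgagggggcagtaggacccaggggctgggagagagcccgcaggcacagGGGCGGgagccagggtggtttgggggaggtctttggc
Plaur: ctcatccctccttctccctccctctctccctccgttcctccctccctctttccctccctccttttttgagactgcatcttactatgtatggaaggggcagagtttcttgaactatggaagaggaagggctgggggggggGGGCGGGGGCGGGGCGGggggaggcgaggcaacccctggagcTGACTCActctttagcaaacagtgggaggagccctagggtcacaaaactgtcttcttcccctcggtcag

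The Serpinf1 window held CCAAT 3 times, at 241, 160 and 148 bases before the start, and CACATG once, at 76 bases. Of 32851 such windows over the genome, 33.8% held at least 1 CCAAT and 12.3% at least 1 CACATG. The Serpinh1 window held a single match, a GC box at 37 bases before the start, a motif found in 32.7% of windows. In the Plaur window were 3 GC boxes, at 111, 105 and 100 bases, the last overlapping its neighbour by a base, and 1 AP-1 match, TGACTCA, at 69 bases. An AP-1 match was found in 6.75% of windows. The remaining motifs were searched as well and had shares of 6.69% (GAANNTTC), 12.4% (TATAAA) and 6.02% (CACGTG). G and C made up 51.6% of the Serpinf1 window, 63.6% of the Serpinh1 window and 59.6% of the Plaur window, against a median of 52.4% over all windows. A match is a run of letters and says nothing of whether a factor binds there.

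Signals are printed as deposited, on a linear scale. Log2 ratios are Fut8-/- over Fut8+/+ and were centred, which amounts to multiplying Fut8-/- signals by a factor of 1.16. Scaled signals under a floor of 12.3 were raised to it, a gene counted as measured where its brighter array reached 39.1, and a difference counted as higher or lower from 2-fold. Where a gene had several probe sets over the floor, their log2 ratios scattered with an SD of 0.40 (5389 genes). This probe-set SD comes from the same 2 arrays, so it does not estimate the spread between arrays or between cultures. Signals of different genes are not read as relative amounts of RNA, since probe sets differ in brightness for equal RNA.

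Of the 5 measured genes, Serpinf1, Plau and Plat passed the 2-fold limit downward in Fut8-/- and 0 passed it upward, while Serpinh1 and Plaur lay within 2-fold. Among all measured genes 8.46% passed it downward and 6.08% upward. The median log2 ratio of the 5 was -1.36, against 0.00033 over all measured genes. It was -0.78 with the floor at the 60th percentile and -0.73 with the median over the probe sets of a gene. These genes were picked with such ratios known, so the count and the median describe them and support nothing further.

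**Figure D1:**
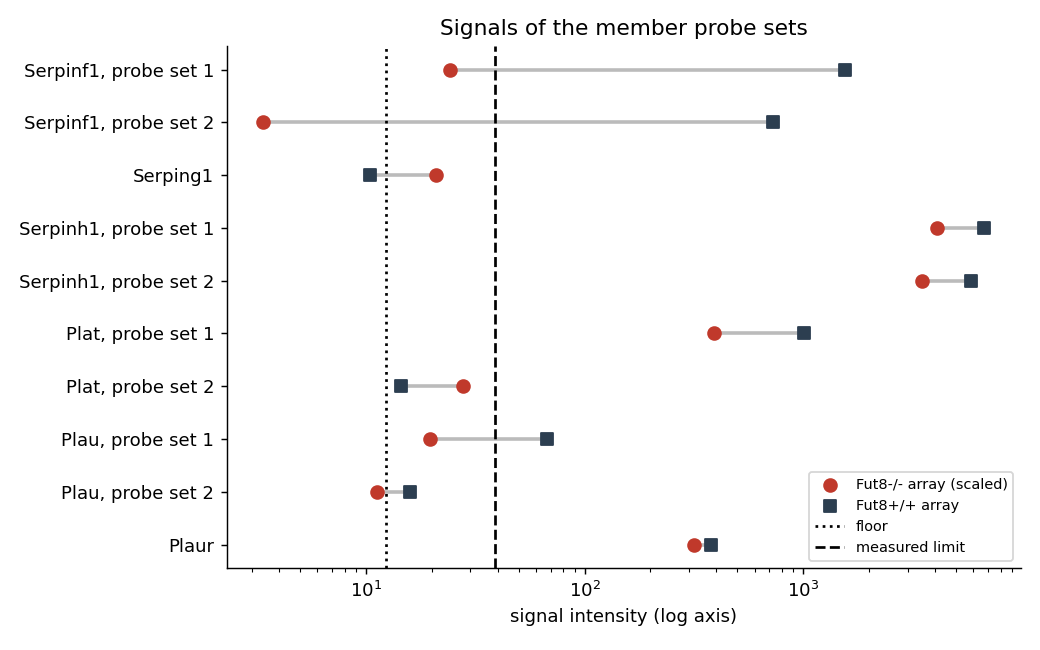
Signal intensity on a log axis for each probe set of the 6 genes, with the Fut8-/- array after scaling by 1.16 as red circles and the Fut8+/+ array as dark squares; the dotted line is the floor of 12.3 and the dashed line the measured limit of 39.1. Both Serpinf1 probe sets span most of the axis, whereas the pairs for Serpinh1 and Plaur lie close together.

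Serpinf1 stood far apart on the arrays. Its brighter probe set had a signal of 20.9 in Fut8-/- and 1548 in Fut8+/+, so the gene was 63.7-fold lower (log2 ratio -5.99). The Fut8-/- signal is under the measured limit, and with the floor raised to that limit, the 60th percentile, the log2 ratio was -5.31. The other probe set had signals of 2.91 in Fut8-/- and 723 in Fut8+/+, the first under the floor, which makes the gene at least 58.6-fold lower there. Both probe sets thus gave a low signal in Fut8-/- and a high one in Fut8+/+. The Fut8-/- signal of the brighter probe set stood at percentile 53.8 of that array and its Fut8+/+ signal at percentile 95.4 of the other. Among the 10164 measured genes, 8, Serpinf1 included, had a floored ratio as low as this or lower, and genes whose ratio is only a bound could lie lower too. In bulk RNA, fewer cells that express a gene and less RNA per cell cannot be told apart.

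The measured genes beside Serpinf1 did not share its difference. Its neighbours in the annotation are Smyd4 and Serpinf2, the gene of the plasmin inhibitor alpha2-antiplasmin. Serpinf2 was under the floor on both arrays, at 2.68 in Fut8-/- and 5.88 in Fut8+/+, so it cannot show whether it shared the difference. Smyd4 had a log2 ratio of 0.46. Over the 20 nearest measured genes, 10 on each side, log2 ratios ran between -0.55 (Sgsm2) and 1.22 (Mettl16), with a median of 0.20, and 0 were at least 2-fold lower. On chromosome 11 as a whole 53 of 849 measured genes, or 6.24%, were at least 2-fold lower.

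**Figure D2:**
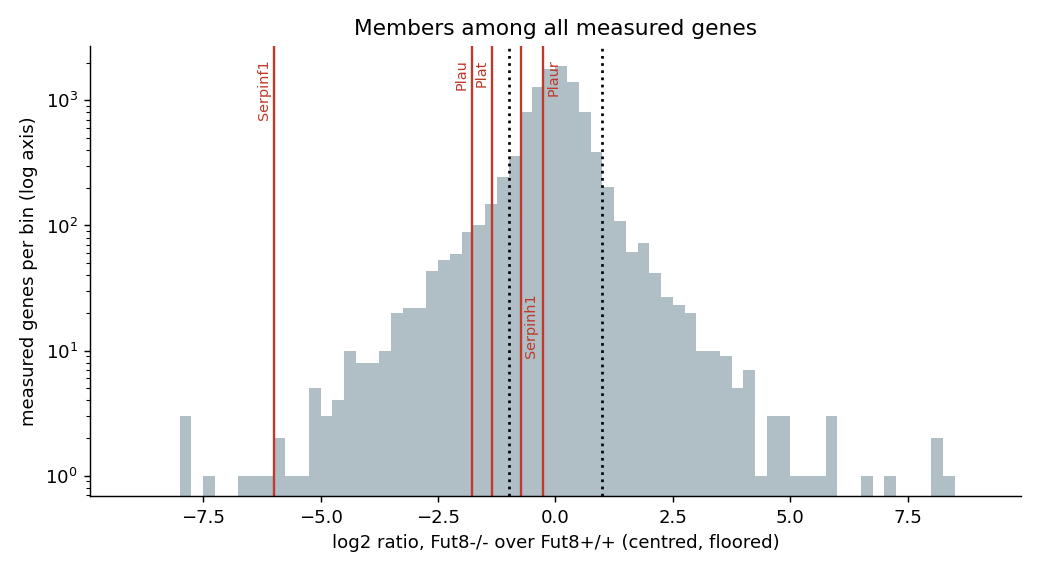
Number of measured genes, on a log axis, in bins of the log2 ratio of Fut8-/- over Fut8+/+, with red lines at Serpinf1 (-5.99), Plau (-1.78), Plat (-1.36), Serpinh1 (-0.73) and Plaur (-0.26); dotted lines mark 2-fold. Serpinf1 lies in the sparse left tail, and Serpinh1 and Plaur lie inside the 2-fold band.

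Genes of the balance between blood vessel growth and its inhibition passed the 2-fold limit in both directions, whereas the measured genes of proposed Serpinf1 receptors did not pass it. Of 8 measured genes among 13 on the joint list, 3 passed the 2-fold limit downward, 1 upward and 4 lay between (median -0.15). The shares over all measured genes were 8.46% downward and 6.08% upward. Thbs2, which encodes the vessel-inhibiting matrix protein thrombospondin 2, had signals of 5.95 in Fut8-/- and 402 in Fut8+/+ and was at least 32.6-fold lower. The vessel growth factor genes Vegfc (93.9 in Fut8-/-, 595 in Fut8+/+) and Vegfa (109.9 in Fut8-/-, 324 in Fut8+/+) were 5.45-fold and 2.53-fold lower. Angpt1, the ligand gene of the Tie2 receptor, was at least 6.36-fold higher, with signals of 67.5 in Fut8-/- and 4.92 in Fut8+/+. The upward direction rests on Angpt1 alone. With the floor at the measured limit its log2 ratio was 1.006 rather than 2.67, which is barely past 2-fold. That of Thbs2 was then -3.36 rather than -5.02. Under a filter at the 75th percentile 0 genes of the list were at least 2-fold higher. Among the receptor genes, Pnpla2, a lipase gene, had a log2 ratio of -0.55, Lrp6 0.26 with probe sets that differed in sign, and the laminin receptor and ribosomal gene Rpsa 0.26. Plxdc1 and Plxdc2, 2 more receptor genes, were not in the measured range.

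Serpinh1, the collagen chaperone gene, was bright on both arrays. Its first probe set had signals of 3500 in Fut8-/- and 6732 in Fut8+/+ (log2 ratio -0.73, 1.65-fold lower), and its second 3009 in Fut8-/- and 5867 in Fut8+/+ (-0.74). The probe sets gave nearly the same ratio, and neither passed 2-fold. As deposited, before centring, the log2 ratios were -0.94 and -0.96, also inside 2-fold. Of all measured genes, 12.5% had a ratio as low as the brighter Serpinh1 probe set or lower. Chromosome 7, where Serpinh1 and Plaur lie, had a median log2 ratio of -0.32 over 714 measured genes, 13.0% of them at least 2-fold lower. Centred on that chromosome the Serpinh1 value was -0.40, and centred on its 20 nearest measured genes -0.46. Among those 20 genes, 3 were at least 2-fold lower and 5 lay below Serpinh1, Mogat2 lowest at -3.51.

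Collagen chains, the cargo of the Serpinh1 protein, were lower or level. Of 11 measured chains among 13 on the list, 4 passed the 2-fold limit downward, 0 upward and 7 lay between (median -0.72). Among all measured genes 8.46% passed it downward and 6.08% upward. Col5a3, a type V chain gene, was 36.5-fold lower (20.2 in Fut8-/-, 858 in Fut8+/+). Its Fut8-/- signal is under the measured limit, and with the floor at that limit the log2 ratio was -4.45 rather than -5.19. Its partner chain gene Col5a1 was 2.98-fold lower (725 in Fut8-/-, 2515 in Fut8+/+), and Col1a1 of type I collagen 2.59-fold lower (941 in Fut8-/-, 2832 in Fut8+/+). Col6a2 was 2.20-fold lower, and Col4a2 of basement membranes had a log2 ratio of -0.84. The median of this list is close to the Serpinh1 ratio of -0.73, a resemblance noted after the values were seen.

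The enzymes and carriers that fold and export procollagen beside Hsp47 mostly lay within 2-fold, as did 8686 of all 10164 measured genes. Of 25 measured genes among 29 listed, 3 passed the 2-fold limit downward, 2 upward and 20 neither (median -0.37). Creb3l1, a transcription factor gene for collagen secretion, was at least 5.40-fold lower (0.936 in Fut8-/-, 66.7 in Fut8+/+). With the floor at the measured limit its log2 ratio was -0.77, which is within 2-fold. The prolyl 4-hydroxylase subunit gene P4ha2 was 3.46-fold lower (185 in Fut8-/-, 747 in Fut8+/+). Kdelr3, of the receptor family that returns Hsp47 and other resident proteins to the endoplasmic reticulum, was 2.51-fold lower (513 in Fut8-/-, 1497 in Fut8+/+). In the other direction, the prolyl 3-hydroxylase gene P3h2 was 10.8-fold higher (144.9 in Fut8-/-, 15.6 in Fut8+/+) and Fkbp7, a prolyl isomerase gene, 3.59-fold higher (512 in Fut8-/-, 166 in Fut8+/+). The Fut8+/+ signal of P3h2 is under the measured limit, and with the floor at that limit its log2 ratio was 2.11 rather than 3.43.

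Serpinh1 is also known as a heat-shock gene. Most of the other heat-shock chaperone genes lay within 2-fold, as did 8686 of all 10164 measured genes. Of 13 measured among 16 listed, 1 passed the 2-fold limit downward, 2 upward and 10 lay between, with a median of 0.16. The small heat-shock protein gene Hspb1 was 8.22-fold lower (35.8 in Fut8-/-, 342 in Fut8+/+). Hspa1b, an inducible Hsp70 gene, was 5.25-fold higher (1363 in Fut8-/-, 302 in Fut8+/+), and Hspb8 2.15-fold higher (1040 in Fut8-/-, 562 in Fut8+/+). Without centring only 1 of these 2 was at least 2-fold higher. Dnaja1 (0.39) and the constitutive Hspa8 (0.22) followed in size of log2 ratio. The letters of the heat shock element core were not found in the Serpinh1 window shown above.

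**Figure D3:**
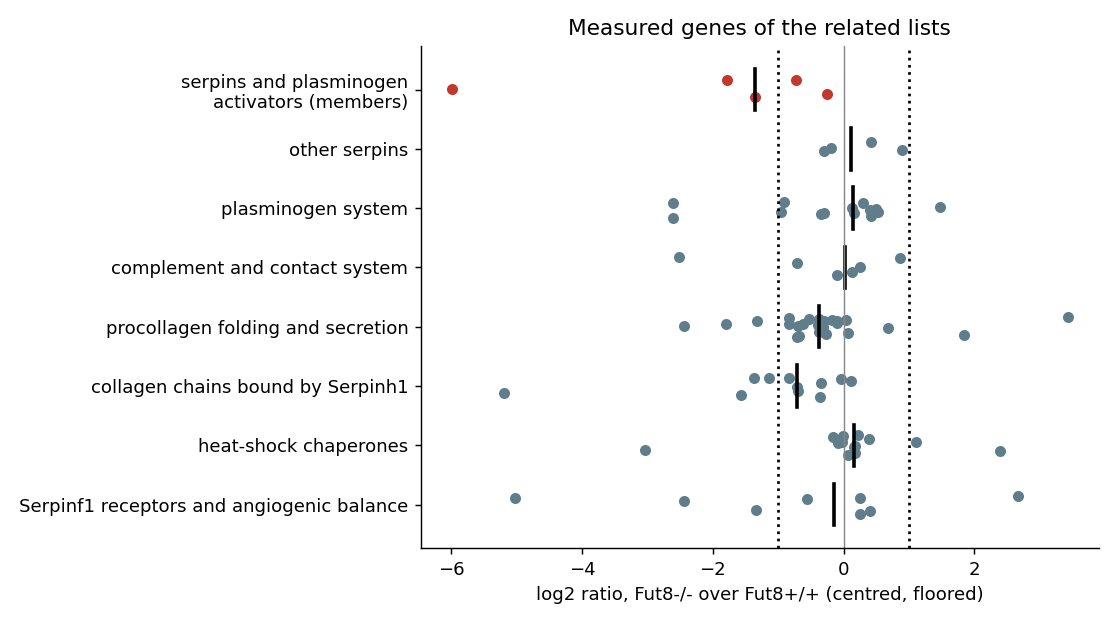
Log2 ratio of Fut8-/- over Fut8+/+ for each measured gene of the 5 serpin and plasminogen activator genes (red) and of 7 related lists (grey); black bars are medians and dotted lines 2-fold. The median is -1.36 for the red points, -0.72 for the collagen chains and 0.16 for the heat-shock chaperones.

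Serping1, the C1 inhibitor gene, was dim on both arrays. Its probe set had signals of 17.9 in Fut8-/- and 10.5 in Fut8+/+, both below the measured limit and the second under the floor, so it is not called. Of the complement and contact genes on which its protein acts or that work with them, 6 of 26 listed were measured. Of these 6, 1 passed the 2-fold limit downward, 0 upward and 5 neither (median 0.016). Over all measured genes 8.46% passed it downward and 6.08% upward. Clu, which encodes the complement-binding chaperone clusterin, was 5.74-fold lower (83.0 in Fut8-/-, 555 in Fut8+/+). The C1 protease genes C1ra and C1s1 had log2 ratios of -0.71 and -0.09. Cd59a, a membrane inhibitor gene of the complement pore, stood at 0.86 (34.2 in Fut8-/-, 22.0 in Fut8+/+) with probe sets that differed in sign. With the floor at the measured limit the Cd59a log2 ratio was 0.026. C2 stood at 0.26. The C1q genes C1qa, C1qb and C1qc were not in the measured range.

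Both plasminogen activator genes gave lower signals in Fut8-/-, each with 1 of its 2 probe sets in the measured range. Plat, the tissue-type activator gene, had signals of 337 in Fut8-/- and 1005 in Fut8+/+ at its bright probe set, which is 2.57-fold lower (log2 ratio -1.36). Its other probe set was below the measured limit and went the other way, with 23.8 in Fut8-/- and 14.5 in Fut8+/+ (log2 ratio 0.93). With the median over probe sets in place of the brightest one, the Plat log2 ratio was -0.21. Of the 20 measured genes nearest to Plat, 1, Tcim at -3.16, lay below it, and their median was -0.23.

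Plau, the urokinase gene, was dim. Its brighter probe set had signals of 16.8 in Fut8-/- and 67.2 in Fut8+/+, which is 3.43-fold lower (log2 ratio -1.78). The other had 9.70 in Fut8-/- and 15.8 in Fut8+/+, too dim to be called. Thus 1 probe set in the measured range carries the Plau difference, and its Fut8-/- signal stands near the floor. With the floor at the 60th percentile the log2 ratio was -0.78, which is within 2-fold, and under a filter at the 75th percentile the gene was no longer measured. The 20 measured neighbours of Plau ran between -0.55 and 0.61, none of them as low as Plau.

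Plaur, the urokinase receptor gene, differed little. Its only probe set had signals of 271 in Fut8-/- and 378 in Fut8+/+, a log2 ratio of -0.26, or 1.19-fold lower, and 32.3% of measured genes had a ratio as low or lower. This is smaller than the probe-set SD of 0.40. Centred on chromosome 7 the value was 0.07, and centred on its 20 nearest measured genes 0.17, so its sign depends on the centring. In that stretch 3 of the 20 genes were at least 2-fold lower. Kcnn4, a potassium channel gene, had a log2 ratio of -4.99, and the adhesion molecule gene Cadm4 stood at -2.04.

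**Figure D4:**
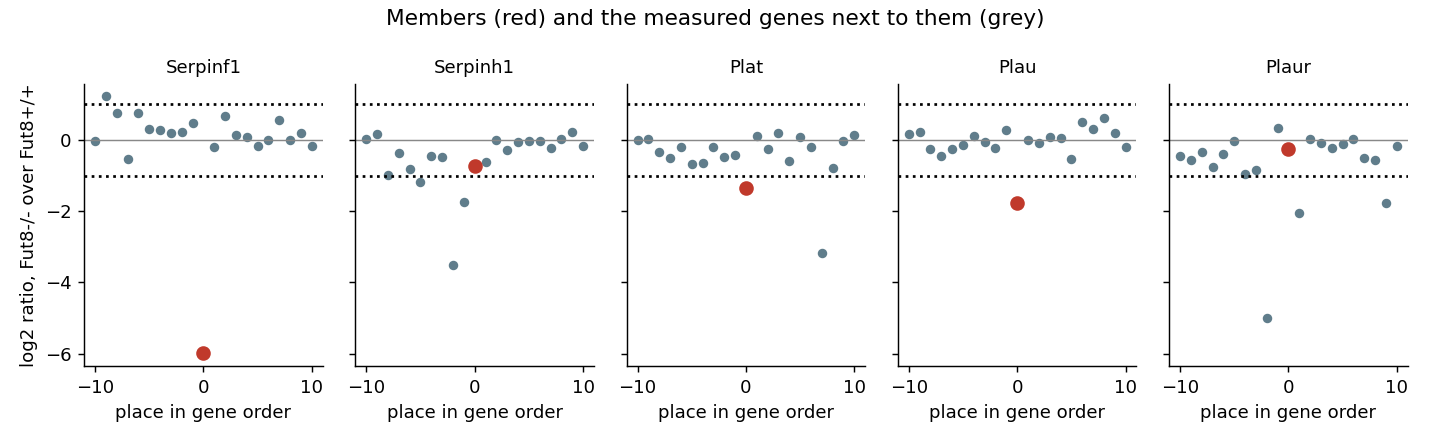
Log2 ratio of Fut8-/- over Fut8+/+ for each of the 5 measured genes (red, place 0) and its 10 nearest measured genes on each side in gene order (grey); dotted lines mark 2-fold. Serpinf1 and Plau lie below all 20 of their neighbours, whereas 5 neighbours lie below Serpinh1 and 12 below Plaur.

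The other genes of the plasminogen system did not move as a group. Of 14 measured among 34 listed, 2 passed the 2-fold limit downward, 1 upward and 11 lay between (median 0.14). Shares over all measured genes were 8.46% downward and 6.08% upward. Without centring 4 of the 14 were at least 2-fold lower. Vldlr, a clearance receptor gene for complexes of protease and serpin, was at least 6.12-fold lower (4.74 in Fut8-/-, 75.5 in Fut8+/+), although its probe sets differed in sign. With the floor at the measured limit the Vldlr log2 ratio was -0.95, which is within 2-fold. Pdgfc, whose growth factor product the tissue-type plasminogen activator can cleave into its active form, was 6.10-fold lower (112 in Fut8-/-, 795 in Fut8+/+). Igf2r, whose product also binds the urokinase receptor, was 2.78-fold higher (310 in Fut8-/-, 130 in Fut8+/+). Tgfb1, the gene of a latent growth factor that plasmin can release, stood at -0.95 with probe sets that differed in sign, and Mrc2, the collagen receptor gene whose product associates with the urokinase receptor, at -0.91. Plg, the gene of plasminogen itself, and Vtn, that of vitronectin, were not in the measured range.

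Few further serpins were expressed in the measured range. Of 37 other serpin genes with a probe set, 33 did not reach it, and the 4 that did lay within 2-fold (median 0.12). Within 2-fold lay also 8686 of all 10164 measured genes. All 4 serpins are intracellular clade B serpins of chromosome 13. Serpinb6a had signals of 3978 in Fut8-/- and 2495 in Fut8+/+ (log2 ratio 0.89). Serpinb9, the granzyme B inhibitor gene, had 167 in Fut8-/- and 145 in Fut8+/+ (0.42), Serpinb6b 27.7 in Fut8-/- and 39.6 in Fut8+/+ (-0.30), and Serpinb6e 77.8 in Fut8-/- and 102.9 in Fut8+/+ (-0.19). Centred on chromosome 13 the median of the 4 was -0.45, and centred on neighbouring genes -0.35. It was 0.65 after quantile normalization, where 1 of the 4 passed 2-fold upward, and 0.65 for the 2 genes left by a filter at the 75th percentile. Near-identical copies in this cluster can share probe sequence, so the individual Serpinb6 values are uncertain.

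For each measured gene the most similar pair of scaled log2 signals was sought among 9612 other genes above the floor on both arrays. Likeness over 2 arrays is no more than a similar brightness and ratio, and it depends on how bright each probe set is for equal RNA. Nearest to Serpinf1 was the lysyl oxidase-like gene Loxl1, at a distance of 0.28 on the log2 scale (23.5 in Fut8-/-, 1325 in Fut8+/+), and 2 genes in all lay within 0.5 of it. Within the same distance lay 34 genes for Serpinh1, 67 for Plat, 59 for Plau and 888 for Plaur. The nearest were Pttg1 for Serpinh1, Lgals3bp for Plat, Hoxa7 for Plau and Hdac5 for Plaur.

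The cultures differed in more than Fut8, and the part of these differences in the serpin and activator values was not tested. Fut8 itself was 14.1-fold lower at its brightest probe set (11.7 in Fut8-/-, 191 in Fut8+/+). The Fut8-/- signal there is near the floor and under the measured limit. Its other probe sets were under the floor on both arrays, at 7.68 and 0.85 in Fut8-/- and 2.55 and 8.34 in Fut8+/+. The Y-linked Eif2s3y had signals of 2845 in Fut8-/- and 7.06 in Fut8+/+, and the X-inactivation transcript Xist 15.2 in Fut8-/- and 656 in Fut8+/+, so the sex-linked difference and the genotype cannot be told apart. Of 12 fibroblast markers 8 were measured, 3 at least 2-fold lower (Prrx1, Col1a1 and Pdgfra), 1 at least 2-fold higher (Pdgfrb) and 4 between. Among all measured genes 8.46% were at least 2-fold lower and 6.08% higher. The summed signal over the 12 fibroblast markers, as deposited and before scaling by 1.16, was 33267 in Fut8-/- and 35768 in Fut8+/+. A few bright genes, Vim among them, made up most of both sums, and no direction is read from the sums. Thy1, Dcn, Lum and Fap were not in the measured range, while Vim had 11110 in Fut8-/- and 11471 in Fut8+/+. Of 16 markers of other cells 3 were measured. Krt19 was at least 14.6-fold higher (155 in Fut8-/-, 2.08 in Fut8+/+), the fetal liver and endoderm gene Afp lower at a log2 ratio of -3.59 (67.3 in Fut8-/-, 942 in Fut8+/+) and Epcam 2.43-fold lower (15.9 in Fut8-/-, 44.9 in Fut8+/+). With the floor at the 60th percentile the log2 ratios of Pdgfra and Epcam were -0.66 and -0.20, within 2-fold. The summed signal over the 16, as deposited, was 364 in Fut8-/- and 1154 in Fut8+/+. Most of it is the signal of Afp and Krt19 given above, so it adds nothing to them. The other 13 markers did not reach the measured limit. Among them were the epithelial markers Krt8, Krt18 and Cdh1, and the hepatocyte and endoderm markers Alb and Apoa1. So were the leukocyte, endothelial, neural crest and muscle markers Ptprc, Pecam1, Sox10 and Myod1.

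**Figure D5:**
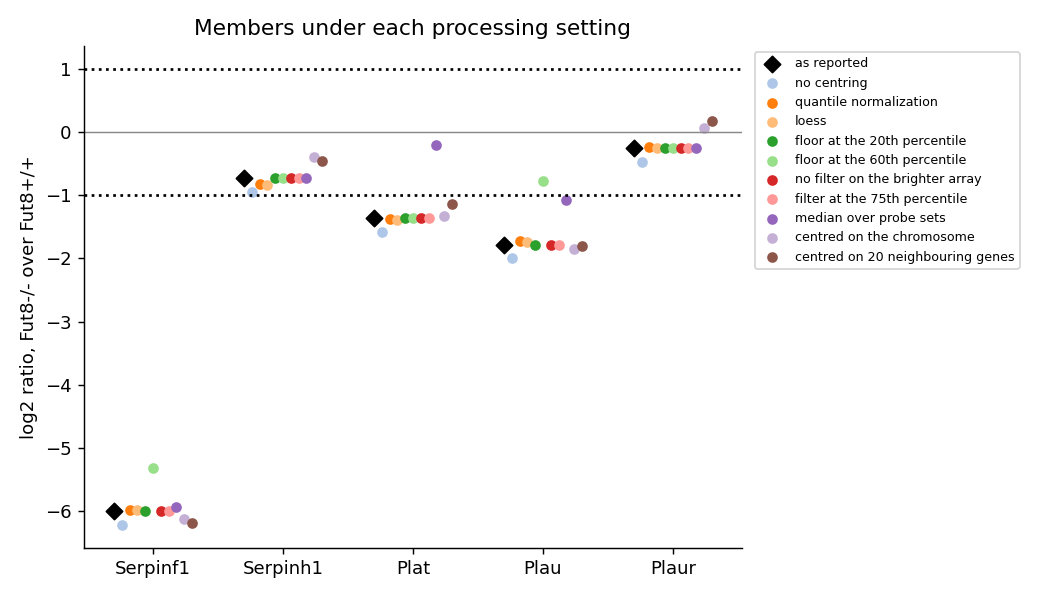
Log2 ratio of Fut8-/- over Fut8+/+ for the 5 measured genes as reported (black diamonds) and under 10 other processing settings (coloured circles); dotted lines mark 2-fold. Serpinf1 stays between -6.21 and -5.31, Serpinh1 between -0.94 and -0.40, Plat between -1.58 and -0.21, Plau between -2.00 and -0.78 and Plaur between -0.48 and 0.17.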

How the data were processed

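RNA of Fut8-/- and Fut8+/+ cells was measured on 1 Affymetrix mouse array each; whether RNA was pooled over cultures is unknown. The authors' deposited values are signal intensity values on a linear scale, 1 per probe set and array, made with GCOS (the Affymetrix operating software) per the submitters' processing notes; its version, signal algorithm, scaling and any calls of detection were not given in the sources used here. Median signals were 16.9 in Fut8-/- and 20.5 in Fut8+/+.

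With Python 3.11.15, pandas 2.3.3 and statsmodels 0.14.6, log2 ratios were centred on the median (-0.22) of all probe sets whose signal passed the 40th percentile of each array. Scaled signals below the pooled 40th percentile were raised to it, and a gene was measured where its brighter array reached the pooled 60th percentile. Where 1 array was at the floor, the ratio bounds the difference from below. A single gene symbol was annotated for 34945 probe sets; 932 with several symbols and 9211 with none, controls included, were not used for genes. The brightest probe set by mean log2 signal stood for a gene. Chromosomes and gene order came from the RefSeq gene table of GRCm38.p6.

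With 1 array per genotype no test was possible, and genes were counted at 2-fold. The members and lists were chosen with earlier results of these data known. Named are all 7 genes, up to 8 other measured serpins, the 5 measured genes with the largest absolute ratio in each list, or fewer, Fut8, and the gene nearest in signal to each measured one. Smyd4, Serpinf2, Sgsm2, Mettl16, Mogat2, Tcim, Kcnn4, Cadm4, Eif2s3y, Xist, Vim, Lrp6, Rpsa and C1s1, and list genes named as not measured, were named after their values were seen. The calculation was tested on simulated data, with changes set only in genes whose mean signal passed the measured limit. Its noise was smaller than the probe-set SD. Dim genes such as Plau were not covered by it. The closing section gives 10 alternatives.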

Additional observations from a re-analysis of the deposited data

How the results depend on the processing

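No paired analysis was possible because each genotype has 1 array. The log2 ratio of Serpinf1 and Plat was negative under all 10 alternatives. With the median over probe sets that of Plat was -0.21, inside the probe-set SD. Plau was negative under the 9 in which it was measured and dropped out under a filter at the 75th percentile. The number of these genes at least 2-fold lower was 2 or 3. Of 50 values, 5 moved by more than the probe-set SD. With the floor at the 60th percentile Serpinf1 was -5.31 and Plau -0.78. With the median over probe sets Plat was -0.21 and Plau -1.07. Centred on 20 neighbours Plaur was 0.17. Raising a floor shrinks ratios of dim genes by construction; the cause was not tested otherwise. All measured genes at least 2-fold lower numbered 448 and higher 332 under a filter at the 75th percentile, where 7409 were measured, against 860 and 618. In lists, no centring gave 4 lower plasminogen genes, 5 lower procollagen folding genes, 1 higher heat-shock gene and 0 higher fibroblast markers. Quantile normalization gave 1 higher other serpin. No filter gave 1 higher other serpin, 1 higher complement gene and 2 higher markers of other cells. A floor at the 60th percentile, a filter at the 75th and the median over probe sets each gave 1 lower plasminogen gene and 1 lower marker of other cells. The filter at the 75th gave 0 higher genes in the Serpinf1 partner list, and turned the median of the other-cell markers from -1.28 to 0.14 (2 genes). The median over probe sets gave 1 lower fibroblast marker and 1 higher procollagen folding gene. Without centring the median of all measured genes was -0.23. Signal over background is unknown without detection calls, which limits Plau, Serping1 and the Fut8-/- level of Serpinf1.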
